A study of Mus musculus with 21 samples.

Results

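The 36 genes described here encode the carriers that move glucose and lactate across the cell membrane, the enzymes of glycolysis, the enzymes that adjust its rate and the entry of pyruvate into mitochondria, and genes of the hypoxia-inducible factor (HIF) response. They form a list of gene names that were chosen with earlier results of these data known, and all 36 were found among the 37734 genes listed for each library. Of these, 35 had 3 or more samples at 10 or above and were tested. Pdk4, a pyruvate dehydrogenase kinase, did not, with 22.1 in 1 mature cDC1 sample, 3.20 in another, 2.78 in 1 mature cDC2 sample, 1.07 in 1 immature thymic cDC2 sample and 0 in the other samples.

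RNAseq was performed on conventional dendritic cells (cDCs) sorted from the spleen and thymus of C57BL/6 mice aged 6 to 8 weeks, which carried no mutation or treatment named in the labels. Both subsets were CD11c+ and B220-, with cDC1 sorted as CD24+ CD11b- cells, negative also for F4/80, Ly6g, Ly6c and DX5, and cDC2 sorted as CD24- CD11b+ cells. Immature cells were CCR7- Esam- and came from both tissues, and mature cells were CCR7+ Esam+ and came from the thymus only. The 6 groups were splenic cDC1 (SP1Minus, 5 libraries), splenic cDC2 (SP2Minus, 3), immature thymic cDC1 (TH1Minus, 4), immature thymic cDC2 (TH2Minus, 3), mature thymic cDC1 (TH1Plus, 3) and mature thymic cDC2 (TH2Plus, 3). Organs of several mice were pooled before sorting. Splenic cDC1 replicates 4 and 5 shared pool, index and lane and differed least of all pairs of that group, so that their mean was used as 1 sample and 20 samples remained. Splenic cDC1 replicates 1 and 4 also carry the same pool number, as do immature thymic cDC1 replicates 3 and 4, and the spread between samples may therefore be technical in part.

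Glycolysis converts glucose to pyruvate in the cytosol, and several of its steps are catalysed by isoenzymes that different genes encode and that tissues use in different proportions. Hexokinase traps glucose in the cell, phosphofructokinase commits it to the pathway, and the PFKFB enzymes make and remove the sugar bisphosphate that activates phosphofructokinase. Lactate dehydrogenase reduces pyruvate to lactate, whereas pyruvate dehydrogenase, which the PDK kinases switch off, feeds it to the mitochondria. HIF1 is a transcription factor stabilized at low oxygen or by inflammatory signals that raises the transcription of many of these genes, and dendritic cells activated by microbial products are known to increase glycolysis.

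Values are normalized read counts, that is, reads per gene divided by a size factor of the library. A difference was called when the Benjamini-Hochberg adjusted p of a limma fit over 14970 genes was below 0.1 and the absolute log2 fold change, on the scale of log2(value + 1), was above 1. Errors of values are SD over samples, with n = 4 for splenic and immature thymic cDC1 and n = 3 for the other groups, and errors of log2 fold changes are SE. Adjusted p values given below come from this limma fit unless another tool is named. In sorted bulk samples, fewer cells of a type that expresses a gene and less RNA of that gene per cell cannot be told apart.

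Between 14266867 and 40119669 reads were recovered per library, and intervals from reads cover only the error of counting. All mature libraries were sequenced in lane 8, whereas immature libraries came from lanes 5 and 8. The 6 genes fixed as markers of mature cDCs summed to 432958 to 566473 in mature cDC1 and 398229 to 543263 in mature cDC2, against 2157 to 4678 in splenic cDC1, 3549 to 5494 in immature thymic cDC1, 7419.8 to 17088 in splenic cDC2 and 22204 to 32084 in immature thymic cDC2. The labelled subset was borne out by Xcr1 and Clec9a in immature cDC1 and by Sirpa and Cd209a in immature cDC2, but in mature cDC2 Clec4a4 lay between 0 and 7.66 and the 6 cDC1 markers summed to 14300.3 to 22358, through Irf8 and Batf3, beside 13928 to 17622 for the 6 cDC2 markers. Mature cDC1 held no reads for Itgam. The 5 genes of cell division (Mki67, Top2a, Ccnb1, Cdk1 and Birc5) summed to 22276 to 26838 in immature and 5584 to 5989 in mature thymic cDC1, and to 27298 to 27989 and 2836 to 4604 in cDC2. All 10 T cell markers summed to 1603 to 2726 in mature and 203 to 259.7 in immature thymic cDC1, and to 913 to 1499.9 and 218 to 336 in cDC2, with Ptcra at 0 to 2.40 in the thymic groups. The 7 macrophage markers summed to 5861 to 8505 in mature and 983 to 1269 in immature thymic cDC1, mostly through Vcam1 in the mature cells, and to 5656 to 18626 and 7089 to 10544 in cDC2. The 5 epithelial markers summed to 3487 to 3816 in immature thymic cDC2, 677 to 1009.9 in mature cDC2 and 84.7 to 152 in splenic cDC2. In the cDC1 groups, in the same order, they summed to 575 to 705, 254 to 525 and 40.4 to 76.2. Epcam made up most of these sums in the immature groups. In mature cDC2 it had 334 to 426, beside Krt5 at 111 to 237, Krt8 at 120 to 253 and Psmb11 at 103 to 111. The 5 plasmacytoid DC markers, through Tcf4, reached 7111 to 8045 in immature thymic cDC2 and at most 3421 in the other groups. The B cell, neutrophil and erythroid markers summed to at most 984, 161 and 96.0, and the 5 general cDC markers to at least 154511 in every library.

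Within a group, libraries differed in the level of the glycolytic enzymes together. Of the 19 genes from hexokinase to lactate dehydrogenase, 15 were highest in immature thymic cDC1 replicate 3 and 15 were lowest in replicate 4, where 32.6% and 40.0% of all genes tested were so placed. In splenic cDC1, 16 were highest in replicate 3 (39.7% of all genes), and in splenic cDC2, 18 were lowest in replicate 2 (45.5%). In mature cDC2, 15 were lowest in replicate 3 (48.3%). Gapdh, the dehydrogenase often used as a reference gene, ranged from 11392 to 34459 within immature thymic cDC1 alone. Results that rest on such libraries are given with and without them.

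With maturation in the thymus, 12 of the 19 enzymes from hexokinase to lactate dehydrogenase fell and 3 rose in cDC1, and 9 fell and 3 rose in cDC2. The enzymes that rose were Eno2, Eno3 and Ldhb in both subsets. In cDC1, 22 of the 35 members tested were called, 6 higher and 16 lower in mature cells. Of all genes tested, 45.7% were called in this comparison, 21.3% higher and 24.5% lower. The median log2 fold change of the members was -0.94, beside -0.04 over all genes. In cDC2, 20 members were called, 6 higher and 14 lower, where 35.6% of all genes were called, 18.6% higher and 17% lower, and the medians were -0.82 for the members and 0.04 for all genes. The mature and immature samples did not overlap for 26 members in cDC1 and 29 in cDC2, beside 55.3% and 60% of all genes tested. By the adjusted p alone, 31 members passed in cDC1 and 28 in cDC2, beside 64.1% and 53.2% of all genes.

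The 2 comparisons rest on separate libraries, but cDC1 and cDC2 libraries share pools of mice in both the immature and the mature groups, so that the subsets do not come from separate animals throughout. Mature cDC1 replicate 1 also carries the pool number of immature thymic cDC1 replicates 3 and 4, so that both sides of that comparison share a pool. The 6 members that rose were the same in both subsets, namely Eno2, Eno3, Pfkfb3, Slc2a6, Ldhb and Pfkfb1. The number that fell in both was 12, and no member rose in 1 subset and fell in the other. How many of all genes tested moved alike or oppositely in the subsets was not counted. These joint counts therefore have no background beside them and show nothing particular to the members.

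**Figure D1:**
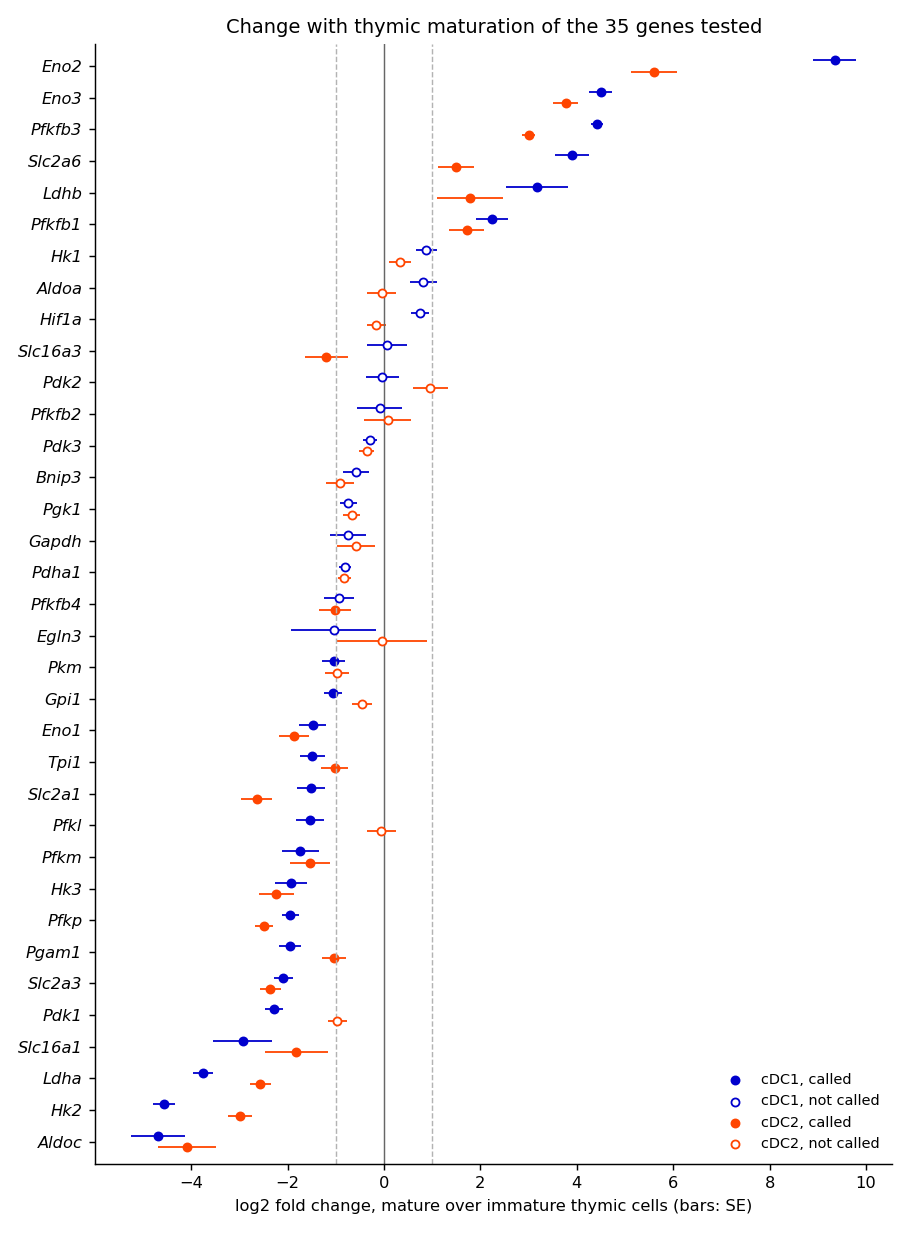
Log2 fold change (mature over immature thymic cells, with SE) of the 35 members tested, in cDC1 and cDC2, ordered by the value in cDC1. Filled points were called, and the dashed lines mark a log2 fold change of 1 in either direction. Eno2 lies farthest to the right in both subsets, at 9.35 and 5.61, and Aldoc farthest to the left, at -4.68 and -4.09.

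The enolase step, which makes phosphoenolpyruvate, changed isoenzyme. Eno2, the form known from neurons, had values of 9.29, 4.16, 12.5 and 11.1 in the immature thymic cDC1 samples and 5834, 5609.8 and 7611 in the mature ones. In cDC2 the values were 106, 155 and 98.1 in immature and 6590.1, 5687 and 5123 in mature samples. Eno2 was thus very low in immature cDC1, low in immature cDC2 and at a like level in both mature subsets, with no overlap between immature and mature samples. Its log2 fold change was 9.35 ± 0.45 in cDC1 (adjusted p = 5.23e-13) and 5.61 ± 0.48 in cDC2 (adjusted p = 6.91e-09). As a ratio of means this was 686-fold in cDC1, where the immature mean of 9.26 rested on 35 reads in all (exact Poisson 95% interval of the mean, 6.45 to 12.9), and 48.5-fold in cDC2.

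Eno3, the muscle form, had values of 359.9, 324, 518 and 302 in immature and 6749, 7358 and 11661 in mature thymic cDC1. In cDC2 it had 319, 463 and 459.5 in immature and 6174, 5426 and 5193 in mature samples. All mature samples lay at least 10-fold above every immature thymic sample of their subset. The log2 fold changes were 4.50 ± 0.24 in cDC1 (adjusted p = 2.79e-12) and 3.77 ± 0.26 in cDC2 (adjusted p = 3.14e-10).

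Eno1, the form found in most tissues, moved the other way. Its values were 4849, 5403, 7440.0 and 3623 in immature and 1738, 1686 and 2142 in mature thymic cDC1. In cDC2 they were 10011, 9491 and 12567 in immature and 3383, 3969 and 1831 in mature samples. The groups did not overlap in either subset, and the log2 fold changes were -1.48 ± 0.28 (adjusted p = 0.000138) and -1.87 ± 0.30 (adjusted p = 3.47e-05). Eno1b, a near copy of Eno1 with a mean value of 10.0, could share reads with it.

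On a per-length scale (value per kb of exon), Eno1 made up 81.7% ± 2.09 of enolase in immature thymic cDC1 and 5.32% ± 0.696 in mature cDC1. Eno3 made up 74.0% ± 2.81 and Eno2 20.7% ± 2.12 of enolase in mature cDC1. In cDC2, the share of Eno1 was 88.2% ± 2.40 in immature and 11.2% ± 3.43 in mature thymic cells, in which Eno3 reached 64.3% ± 3.08 and Eno2 24.5% ± 0.632. The summed enolase level per kb was 5.49-fold higher in mature than in immature thymic cDC1 (6634 ± 1813 against 1209 ± 349) and 2.23-fold higher in cDC2 (5021 ± 584 against 2251 ± 321), with no overlap between samples. On this scale, no other step from hexokinase to lactate dehydrogenase had a higher sum in mature cells of both subsets. The length counts every annotated exon base, 5379 for Eno1, 4705 for Eno2 and 1739 for Eno3. Reads of Eno3 thus weigh more than those of Eno1. The shares, the summed levels and their lack of overlap depend on this length, and sums without it were not computed.

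**Figure D2:**
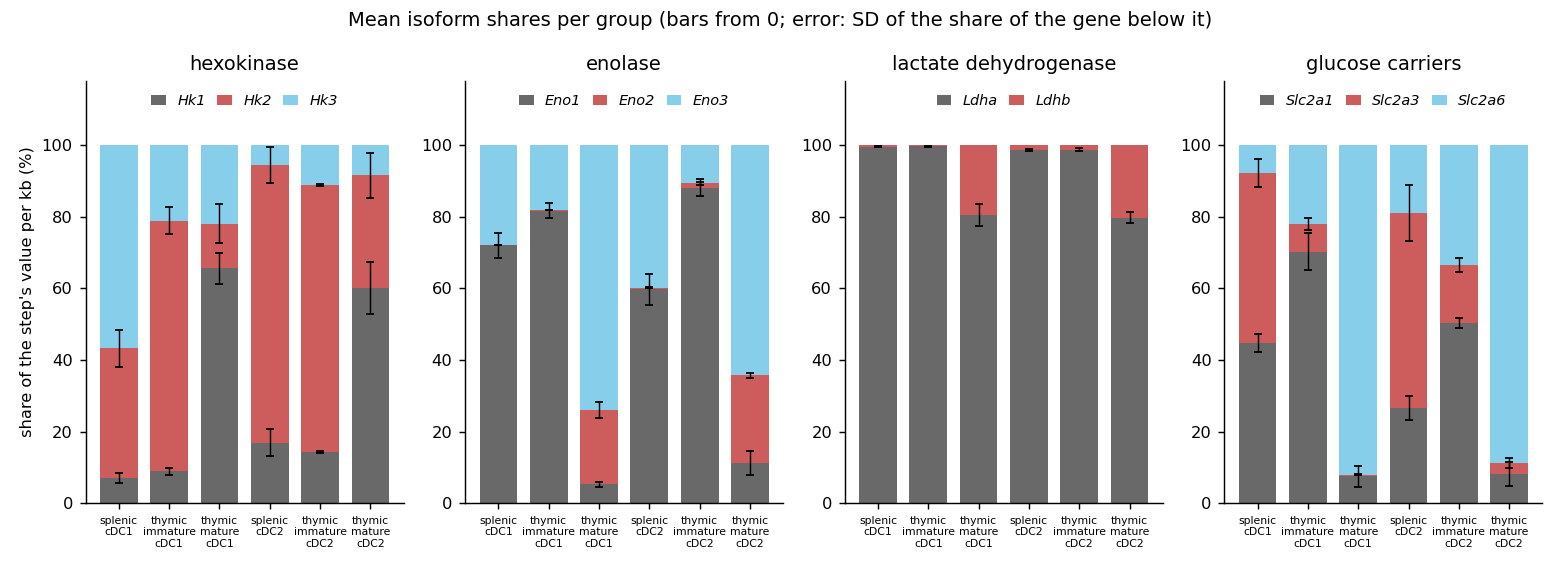
Mean share of each isoform in the summed value per kb of 4 steps, by group, with SD. In the 2 mature groups Eno3 and Eno2 take the place of Eno1, Slc2a6 makes up 92.0% and 88.8% of the glucose carriers, and Hk1 is the largest part of hexokinase.

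Lactate dehydrogenase fell. Ldha, the subunit that favours lactate, had values of 11748, 12427, 15609 and 10007 in immature thymic cDC1 and 795, 951 and 999 in mature cDC1. In cDC2 the values were 9333, 9627 and 11536 in immature and 1950.0, 2274 and 1132 in mature samples. Every mature sample was far below every immature one. The log2 fold change was -3.75 ± 0.21 in cDC1, a 13.6-fold fall of the mean (adjusted p = 5.45e-12), and -2.56 ± 0.22 in cDC2, a 5.69-fold fall (adjusted p = 1.02e-08). Ldhb, the heart subunit, rose from 21.1, 6.66, 25.0 and 3.03 to 109, 109 and 92.7 in cDC1 (log2 fold change 3.18 ± 0.64, adjusted p = 0.000244) and from 56.6, 38.8 and 93.5 to 208, 285 and 145 in cDC2 (1.78 ± 0.69, adjusted p = 0.0386). The rise in cDC2 was not called without immature replicate 2 (adjusted p = 0.132) or mature replicate 2 (adjusted p = 0.125). Per kb, Ldhb went from 0.223% ± 0.157 to 19.4% ± 3.01 of lactate dehydrogenase in cDC1 and from 1.26% ± 0.418 to 20.2% ± 1.59 in cDC2, while the sum of both genes was 11.0-fold and 4.61-fold lower in mature cells. The processed copy Ldha-ps2 has a mean value of 64.4 and could share reads with Ldha.

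Hexokinase also changed form. Hk2, the inducible hexokinase, had 4509, 3781, 4361 and 4063 in immature thymic cDC1 and 135, 225 and 177 in mature cDC1. In cDC2 it had 5454, 5200.1 and 5765 in immature and 529.7, 939.6 and 647 in mature samples. Mature samples were lower without overlap, 23.3-fold on the mean in cDC1 (log2 fold change -4.56 ± 0.23, adjusted p = 1.53e-12) and 7.76-fold in cDC2 (-2.99 ± 0.25, adjusted p = 5.38e-09). Hk3, a hexokinase of blood cells, fell from 755, 860.3, 899 and 588 to 201, 154 and 256 in cDC1 (log2 fold change -1.94 ± 0.33) and from 525, 471 and 506 to 134, 162 and 54.2 in cDC2 (-2.23 ± 0.36). Hk1, the housekeeping form, had means of 759 ± 99.0 in immature and 1423 ± 386 in mature cDC1, and 1494 ± 88.8 and 1886 ± 49.7 in cDC2, and was not called in either subset, although it was without mature cDC1 replicate 2 (log2 fold change 1.08, adjusted p = 0.000459). Its share of hexokinase per kb was 8.89% ± 0.902 in immature and 65.7% ± 4.34 in mature thymic cDC1, and 14.3% ± 0.217 and 60.1% ± 7.23 in cDC2, as the sum of the 3 genes was 3.97-fold and 3.31-fold lower in mature cells.

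**Figure D3:**
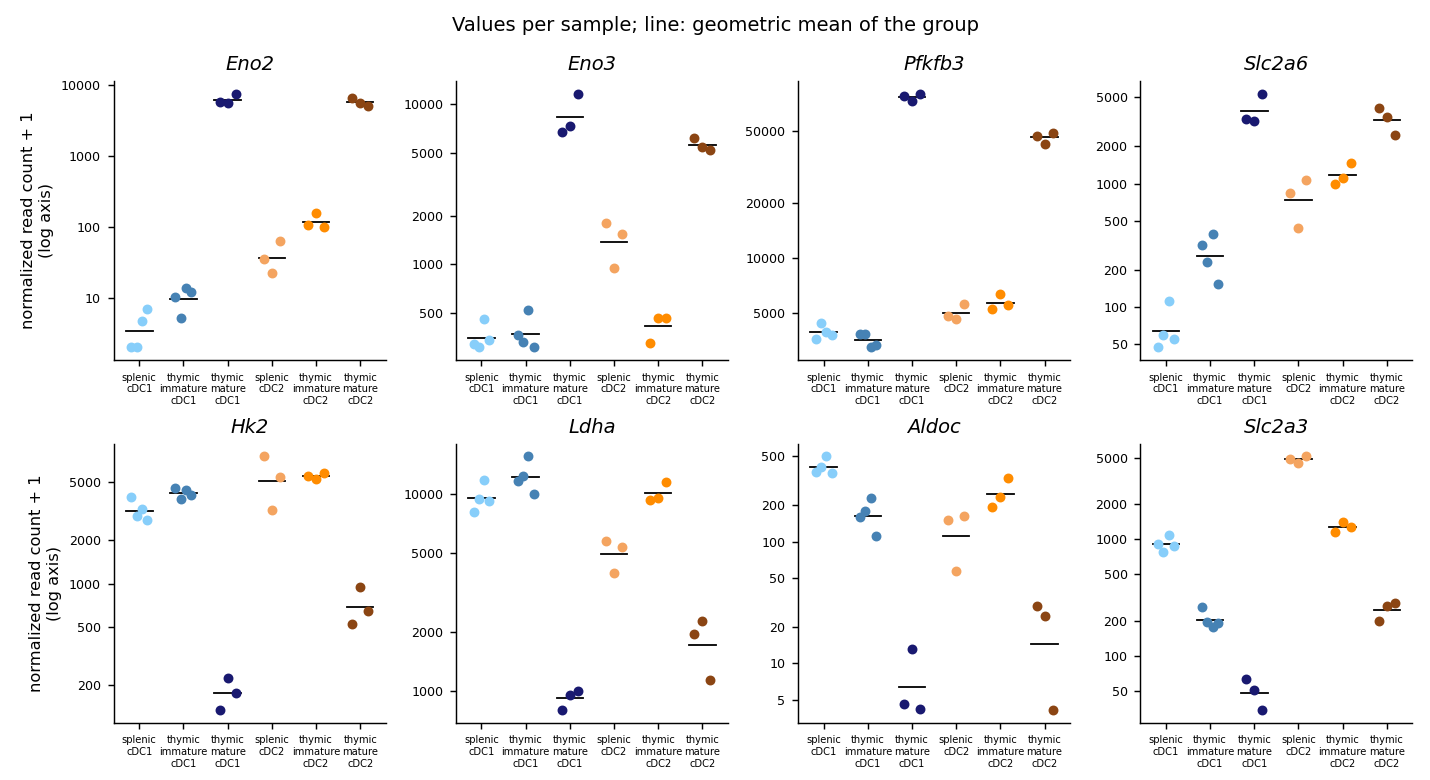
Normalized read count plus 1 (log axis) of 8 members in each of the 20 samples, by group, with the geometric mean as a line. Eno2, Eno3, Pfkfb3 and Slc2a6 are highest in the mature samples of both subsets, and Hk2, Ldha, Aldoc and Slc2a3 are lower there than in the immature samples of the same subset, with mature cDC1 below mature cDC2 on average for the last 4.

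Of the 11 other enzymes, 8 fell in mature cDC1 and 5 in mature cDC2, and none rose. Phosphofructokinase is encoded by 3 genes, of which Pfkp, the platelet form, had 15047, 13659, 11755 and 12412 in immature thymic cDC1 and 3097, 3236 and 3978 in mature cDC1, and 10793, 11027 and 9754 and 1402, 2288 and 2062 in cDC2. The fall of Pfkp was -1.95 ± 0.18 in cDC1 (adjusted p = 8.49e-09) and -2.48 ± 0.19 in cDC2 (adjusted p = 1.45e-09) on the log2 scale, without overlap. Pfkm, the muscle form, was low throughout and fell in both subsets, with overlap in cDC1 (-1.73 ± 0.39 and -1.54 ± 0.42), from means of 120.4 ± 47.6 to 37.8 ± 24.6 and of 192 ± 9.77 to 68.7 ± 28.2. Pfkl, the liver form, fell in cDC1, where immature samples ranged from 1185 to 2038 and mature samples from 442 to 741 (-1.53 ± 0.29), whereas in cDC2 it had 1003 to 1146 in immature and 808 to 1166 in mature samples and was not called (-0.05 ± 0.31, adjusted p = 0.907). Pfkp shares 748 of its 13401 exon bases with Pitrm1 on the opposite strand, and Pfkm shares 18 with Senp1. The strand setting of the counting is not given in the sources used here, so that reads of such pairs may not be separated.

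At the aldolase step, Aldoc, the brain form, fell from 158, 176, 226 and 110.1 to 3.69, 12.1 and 3.20 in cDC1 and from 190.0, 232 and 330.2 to 28.4, 23.7 and 3.14 in cDC2. Its log2 fold changes of -4.68 ± 0.56 and -4.09 ± 0.60 were the largest falls among the members in both subsets, and mature cDC1 held only 13 reads of it in all (exact Poisson 95% interval of the mean, 3.38 to 10.8). Aldoa, the form that made up 97.9% ± 0.111 of aldolase per kb in immature thymic cDC1 and nearly all of it in mature cDC1, did not fall. Its values were 6049, 7090.2, 9860.2 and 4491 in immature and 10240.1, 11455 and 13344 in mature cDC1, which did not overlap but differed by a log2 fold change of 0.81 ± 0.28, below the limit of 1. Without immature cDC1 replicate 3 this came just past 1 and was called (adjusted p = 0.00527). In cDC2 the log2 fold change of Aldoa was -0.05 ± 0.30.

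Downstream of aldolase, Tpi1 (triosephosphate isomerase) and Pgam1 (phosphoglycerate mutase) fell in both subsets, with log2 fold changes of -1.49 ± 0.26 and -1.95 ± 0.24 in cDC1 and -1.02 ± 0.28 and -1.03 ± 0.25 in cDC2. The cDC2 values lay just past the limit and fell short of it without immature replicate 3 or mature replicate 3 (-0.87 and -0.76 for Tpi1, -0.95 and -0.86 for Pgam1), and for Pgam1 also without immature replicate 1 (just under 1 in size). Gpi1 (glucose-6-phosphate isomerase) and Pkm (pyruvate kinase) were called in cDC1 (-1.06 ± 0.19 and -1.04 ± 0.24) but not without immature replicate 3 (-0.94 and -0.91) or mature replicate 1 (-0.98 and -0.89). In cDC2 their values were -0.45 ± 0.21 and -0.98 ± 0.26, and Pkm was called there without any 1 of immature replicates 1 and 2 and mature replicates 1 and 2 (-1.02 to -1.10). Pgk1 (phosphoglycerate kinase) had -0.74 ± 0.17 in cDC1 and -0.67 ± 0.18 in cDC2, with non-overlapping samples but below the limit of 1. Gapdh had -0.74 ± 0.37 and -0.58 ± 0.40, its samples overlapped in both subsets, and it was not called (adjusted p = 0.0937 and 0.248). Without mature cDC1 replicate 3 or immature cDC1 replicate 4 Gapdh was called in cDC1, at -1.10 (adjusted p = 0.0223) and -1.05 (adjusted p = 0.0156).

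Among the carriers of glucose, Slc2a6 (GLUT6), a carrier of lysosomal membranes, rose and the plasma membrane carriers Slc2a1 (GLUT1) and Slc2a3 (GLUT3) fell. Slc2a6 had 317, 229.9, 390.1 and 153 in immature thymic cDC1 and 3316, 3223 and 5339 in mature cDC1, and 995, 1103 and 1461 and 4119, 3461 and 2486 in cDC2. Mature samples were higher without overlap, with log2 fold changes of 3.90 ± 0.35 (adjusted p = 5.65e-09) and 1.49 ± 0.37 (adjusted p = 0.00231). Slc2a1 went from 921, 978, 979.9 and 806 to 330.0, 381 and 263 in cDC1 (-1.51 ± 0.30) and from 1768, 1884 and 2145 to 335, 529 and 165 in cDC2 (-2.64 ± 0.32). Slc2a3 went from 263, 194, 176 and 193 to 62.7, 50.3 and 33.6 in cDC1 (-2.09 ± 0.20) and from 1144, 1416 and 1269 to 199.6, 269 and 283 in cDC2 (-2.36 ± 0.22). Neither carrier's groups overlapped, and all 4 falls had adjusted p values of at most 0.000182. Per kb, Slc2a6 made up 22.0% ± 5.80 of the 3 carriers in immature and 92.0% ± 3.02 in mature thymic cDC1, and 33.5% ± 2.74 and 88.8% ± 3.22 in cDC2.

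The lactate carrier Slc16a1 (MCT1) fell from 378, 255, 337 and 423 to 7.37, 123 and 86.4 in cDC1 (-2.93 ± 0.61, adjusted p = 0.000308) and from 254, 289 and 375 to 55.3, 132 and 84.0 in cDC2 (-1.82 ± 0.65, adjusted p = 0.026). The cDC2 call was lost without mature replicate 1 (adjusted p = 0.104). Slc16a3 (MCT4), the carrier known for exporting lactate from glycolytic cells, was called in cDC2 (-1.20 ± 0.44, adjusted p = 0.0315) but not without mature replicate 3 (-0.76, adjusted p = 0.191), and had 0.07 ± 0.41 in cDC1.

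Pfkfb3, the inducible enzyme that makes the activator of phosphofructokinase, rose in both subsets. Its values were 3834, 3865, 3250.3 and 3363 in immature thymic cDC1 and 77321, 72784 and 79513 in mature cDC1. In cDC2 they were 5301, 6391 and 5528 in immature and 46773, 42411 and 48607 in mature samples. The replicates lay close together and the groups far apart, with log2 fold changes of 4.42 ± 0.12 in cDC1, or 21.4-fold (adjusted p = 1.74e-16), and 3.00 ± 0.13 in cDC2, or 8.00-fold (adjusted p = 6.40e-13). Pfkfb3 took 0.253% to 0.284% of all reads in mature cDC1 libraries and 0.0133% to 0.0165% in immature thymic cDC1, and by value per kb it ranked between 101 and 133 of 14964 genes in mature cDC1 and between 2238 and 2711 in immature thymic cDC1.

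The other PFKFB genes were far lower. Pfkfb1, the liver and muscle form, rose from 117, 84.1, 74.9 and 47.5 to 239.6, 511 and 398 in cDC1 (2.23 ± 0.33) and from 43.8, 81.0 and 71.7 to 176, 178 and 295 in cDC2 (1.71 ± 0.36), without overlap. Pfkfb4 fell just past the limit in cDC2 (-1.01 ± 0.33) and not in cDC1 (-0.94 ± 0.31), with the cDC2 value at -0.84 without mature replicate 3 and -0.98 without immature replicate 1. In cDC1 it was called without immature replicate 2 (-1.02), immature replicate 3 (-1.01) or mature replicate 3 (-1.41). Pfkfb2 had log2 fold changes of -0.09 ± 0.46 and 0.07 ± 0.49 and shares 1262 of its exon bases with Gm29427 on the same strand. Per kb, Pfkfb3 made up 86.7% ± 1.95 of the 4 genes in immature and 98.7% ± 0.336 in mature thymic cDC1.

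Of the kinases that switch off pyruvate dehydrogenase, Pdk1, a HIF target, fell in cDC1 from 671, 526, 518 and 486 to 83.0, 113 and 148 (-2.28 ± 0.18, adjusted p = 1.40e-09). In cDC2 it went from 551, 549.7 and 533 to 271, 293 and 268, which did not overlap and gave -0.97 ± 0.20, just short of the limit, and -1.01 without mature replicate 2. Pdk2 had -0.03 ± 0.33 in cDC1 and 0.96 ± 0.36 in cDC2, where it was called without immature replicate 1 (1.08), immature replicate 3 (1.07) or mature replicate 3 (1.00). Pdk3, which made up 81.6% ± 3.81 of the kinases per kb in immature thymic cDC1, had -0.30 ± 0.14 in cDC1 and -0.36 ± 0.15 in cDC2. Pdha1, the catalytic subunit of pyruvate dehydrogenase, was lower in all mature samples (-0.81 ± 0.12 and -0.82 ± 0.13, adjusted p = 6.70e-06 and 2.19e-05) without reaching the limit of 1.

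Hif1a, Bnip3 and Egln3 were not called in either subset with all samples. Hif1a, the oxygen-regulated subunit, had 2242, 2006, 1557 and 2202 in immature thymic cDC1 and 3130.1, 3383 and 3415 in mature cDC1, without overlap but with a log2 fold change of 0.74 ± 0.19 (adjusted p = 0.00196). In cDC2 its log2 fold change was -0.16 ± 0.20. Bnip3, a HIF target that marks mitochondria for removal, had -0.59 ± 0.27 and -0.92 ± 0.29, and Egln3, a HIF prolyl hydroxylase and itself a HIF target, had -1.04 ± 0.89 and -0.05 ± 0.95 at values of at most 20.3 in cDC1. Bnip3 was called in cDC2 without immature replicate 1 (-1.10) or mature replicate 3 (-1.14), and Egln3 in cDC1 without mature replicate 2 (-1.90) or immature replicate 4 (-1.82).

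By step of the pathway, the summed value per kb of mature cells was lower than that of immature thymic cells in both subsets for hexokinase, glucose-6-phosphate isomerase, phosphofructokinase, triosephosphate isomerase, phosphoglycerate kinase, phosphoglycerate mutase, pyruvate kinase and lactate dehydrogenase, in each case without overlap between samples. The falls of the mean in cDC1 ranged from 1.66-fold for phosphoglycerate kinase to 11.0-fold for lactate dehydrogenase, and those in cDC2 from 1.36-fold for glucose-6-phosphate isomerase to 4.61-fold for lactate dehydrogenase. The sum of the 3 glucose carriers was 3.54-fold higher in mature cDC1 (1333 ± 355 against 376 ± 51.8), and in cDC2 it was 1177 ± 283 against 1097 ± 136, with overlap. The PFKFB sum was 18.8-fold and 6.91-fold higher in mature cells. For steps and families with several genes, these ratios depend on the exon lengths used.

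**Figure D4:**
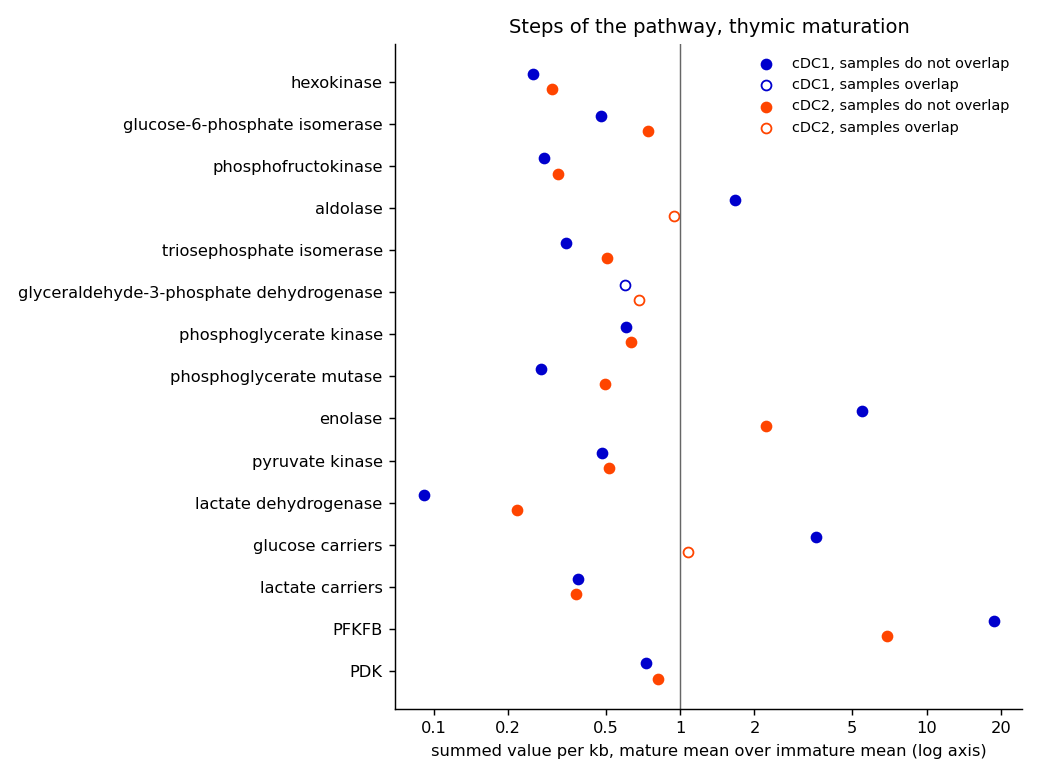
Ratio of the group means of the summed value per kb (mature over immature thymic cells, log axis) for each step or family, with filled points where samples did not overlap. Enolase and PFKFB lie right of 1 in both subsets, and lactate dehydrogenase lies farthest left, 11.0-fold lower in cDC1 and 4.61-fold lower in cDC2.

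Several marker sums moved with these changes. In both subsets the sums of the cell division, epithelial and general cDC markers were lower in mature than in immature thymic cells. So were the plasmacytoid DC markers (1269 to 1316 against 1855 to 3110.4 in cDC1), and the T cell markers were higher, each sum without overlap. Of the epithelial markers Epcam fell, whereas Krt5 and Krt8 rose in both subsets. Psmb11 rose in cDC2 (103 to 111 in mature against 7.47 to 20.8 in immature thymic cells) and overlapped in cDC1. Krt5 had 33.2 to 134 in mature against 20.3 to 26.7 in immature thymic cDC1, and 111 to 237 against 19.4 to 43.8 in cDC2. Of the general cDC markers Cd74, H2-Ab1 and Itgax fell, whereas Zbtb46 and Flt3 rose in both subsets. Flt3 had 28316 to 30020 in mature against 16444 to 18627 in immature thymic cDC1, and 16086 to 19126 against 11737 to 13560 in cDC2. In cDC1 the summed macrophage markers were higher in mature cells, the cDC1 markers lower (40321 to 43806 against 87578 to 96564) and the cDC2 markers higher (2114 to 3608 against 381 to 741). The cDC2 sum rose through Irf4 (1821 to 3117 against 78.0 to 272) and Sirpa (286 to 481 against 173 to 265). The cDC2 markers Cd209a, Clec10a, Itgam and Clec4a4 fell without overlap, and the cDC1 marker Batf3 rose (4509 to 5683 against 1108 to 1768). In cDC2 the summed cDC1 markers were higher in mature cells (14300.3 to 22358 against 3028 to 5156), the cDC2 markers lower (13928 to 17622 against 46893 to 49251) and the B cell markers higher (251 to 402 against 170.1 to 239.9). The cDC1 sum rose there through Irf8 and Batf3, whereas Xcr1, Clec9a, Cadm1 and Tlr3 fell. The part of these markers in the changes was not tested. All 22 calls in cDC1 and all 20 in cDC2 had the same sign among lane 8 libraries alone (3 mature and 3 immature samples in cDC1, 3 and 2 in cDC2). For members whose samples do not overlap the sign could not have changed.

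The extent of the maturation change differed between the subsets for 8 members (cDC2 minus cDC1, 4 higher and 4 lower), where 13.6% of all genes were called, 8.34% higher and 5.25% lower. By the adjusted p alone, 10 members passed, beside 18.5% of all genes. The rise was smaller in cDC2 for Eno2 (difference -3.74 ± 0.65 on the log2 scale, adjusted p = 0.000647), Slc2a6 (-2.41 ± 0.51, adjusted p = 0.0032) and Pfkfb3 (-1.42 ± 0.18, adjusted p = 2.52e-05). The fall was smaller in cDC2 for Hk2 (1.57 ± 0.34, adjusted p = 0.00425), Pfkl (1.48 ± 0.42, adjusted p = 0.0237), Pdk1 (1.31 ± 0.27, adjusted p = 0.00272) and Ldha (1.19 ± 0.31, adjusted p = 0.0132), with Ldha at 0.99 without mature cDC2 replicate 2. Slc2a1 fell more in cDC2 (-1.13 ± 0.43, adjusted p = 0.0964), but this call lay close to the threshold and was lost in 15 of the 20 fits that left out 1 sample, with the highest adjusted p, 0.228, without mature cDC2 replicate 3. For Eno2 and Slc2a6 the mature levels of the subsets overlapped, and it was the immature levels that differed. The mature markers also had a higher sum in immature thymic cDC2 than in immature thymic cDC1 (22204 to 32084 against 3549 to 5494). Most of it was Ccl22 (13088 to 19670 against 1412 to 2372), with Ccr7, Fscn1, Socs2 and Relb also higher. Esam was lower (1.07 to 14.0 against 19.2 to 29.6). The part of these markers in the values of Eno2 and Slc2a6 was not tested.

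The members lie on 14 chromosomes, and chromosome 6 holds 7 of them. Among these, Eno2 (chr6:124760053-124769673, minus strand) and Tpi1 (chr6:124810586-124814296, minus strand, both mm10, GENCODE M21) are 40.9 kb apart on the same strand, and with maturation Eno2 rose and Tpi1 fell in both subsets. Gapdh follows 347 kb beyond Tpi1.

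Promoters of 5 members that moved far with maturation are shown because HIF binds the core ACGTG or GCGTG (hypoxia response element) and MYC-type factors bind CACGTG, a letter sequence that contains ACGTG on both strands. The windows run from 250 bases before to 50 bases after a transcription start (RefSeq, GRCm38.p6, written 5′ to 3′ on the gene's strand), and capitals mark every copy of these 3 motifs on either strand, so that CACGT and CACGC are the cores read on the opposite strand. The first 3 genes rose and the last 2 fell in both subsets.
Eno2 (chr6:124769624-124769923, minus strand): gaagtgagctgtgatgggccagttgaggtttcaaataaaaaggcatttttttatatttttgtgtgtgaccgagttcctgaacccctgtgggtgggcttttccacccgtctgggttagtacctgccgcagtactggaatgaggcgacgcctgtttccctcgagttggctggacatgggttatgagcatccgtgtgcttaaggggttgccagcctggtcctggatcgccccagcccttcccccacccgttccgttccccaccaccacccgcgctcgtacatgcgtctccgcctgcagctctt
Eno3 (chr11:70656926-70657225, plus strand): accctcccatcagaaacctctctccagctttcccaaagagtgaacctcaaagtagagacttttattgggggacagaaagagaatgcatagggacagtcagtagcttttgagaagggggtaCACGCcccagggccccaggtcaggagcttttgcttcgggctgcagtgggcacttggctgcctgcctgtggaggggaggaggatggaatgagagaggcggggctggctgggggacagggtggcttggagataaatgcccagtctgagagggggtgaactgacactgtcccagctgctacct
Pfkfb3 (chr2:11502041-11502340, minus strand): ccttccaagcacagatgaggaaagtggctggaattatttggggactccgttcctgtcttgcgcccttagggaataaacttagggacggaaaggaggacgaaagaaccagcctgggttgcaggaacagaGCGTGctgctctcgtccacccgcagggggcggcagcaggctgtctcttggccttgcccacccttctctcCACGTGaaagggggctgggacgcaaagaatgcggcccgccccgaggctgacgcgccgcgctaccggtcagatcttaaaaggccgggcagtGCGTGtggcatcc
Hk2 (chr6:82774405-82774704, minus strand): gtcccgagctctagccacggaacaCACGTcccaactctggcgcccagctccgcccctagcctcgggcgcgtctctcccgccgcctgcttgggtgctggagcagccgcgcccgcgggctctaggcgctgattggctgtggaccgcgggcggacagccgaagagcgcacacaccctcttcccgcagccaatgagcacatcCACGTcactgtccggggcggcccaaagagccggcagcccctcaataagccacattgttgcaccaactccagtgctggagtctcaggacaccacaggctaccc
Ldha (chr7:46845554-46845853, plus strand): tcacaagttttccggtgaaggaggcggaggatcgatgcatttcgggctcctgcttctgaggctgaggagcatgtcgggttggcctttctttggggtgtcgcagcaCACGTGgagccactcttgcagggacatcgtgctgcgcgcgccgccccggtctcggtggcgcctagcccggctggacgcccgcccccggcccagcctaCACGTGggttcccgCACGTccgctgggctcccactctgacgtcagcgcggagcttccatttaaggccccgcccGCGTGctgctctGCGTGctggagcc

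The Eno2 window, which has the largest rise behind it, held none of these letters, and the Eno3 window held GCGTG once. The Pfkfb3 window held CACGTG once, which counts as 2 matches to ACGTG, and GCGTG at 2 places, while a second Pfkfb3 window farther upstream held ACGTG once. The Hk2 window held ACGTG at 2 places, and the Ldha window held CACGTG at 2 places, 1 further ACGTG and GCGTG at 2 places, while a second Ldha window held GCGTG at 2 places. Windows with a match thus stood before genes that rose and before genes that fell. RefSeq windows were found for 35 of the 36 members, 54 windows in all. Of these, 46.3% held ACGTG, 53.7% GCGTG and 14.8% CACGTG, beside 19.6%, 32.4% and 7.15% of the 32851 windows of all 27025 genes. At least 1 of the 2 cores was present in a window of 32 members, beside 12628 of all 27025 genes. By window, the shares were 77.8% for the members and 43.8% for all genes. Gpi1, Tpi1 and Eno2 had none. A match is a match of letters and no evidence of binding, and no match says only that these letters are not in the window.

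Lists of neighbouring pathways were examined in the same fits, with the shares of all genes called as above. Of 20 HIF targets outside glycolysis, 10 rose and 5 fell with maturation in cDC1 (median log2 fold change 0.84) and 6 rose and 3 fell in cDC2 (median 0.45). Called genes of this list in cDC1 included Tfrc, the transferrin receptor (log2 fold change -5.73, 31.3 ± 4.70 against 1731 ± 351), and Adm, the peptide hormone adrenomedullin (5.30). Adm rose by 4.95 and Tfrc fell (-4.41) in cDC2 as well. Of 7 tested genes of the HIF subunits and oxygen sensing, Vhl, which targets HIF for destruction, rose in both subsets (1.62 and 1.73), and Cited2 rose in cDC2 (1.09).

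Pathways that branch from glycolysis showed calls in both directions. Of 12 glycogen and gluconeogenesis genes tested, 2 rose and 2 fell in cDC1 and 2 rose in cDC2. The 2 that rose in both were Pygl, a glycogen phosphorylase (6.83 in cDC1, 6379 ± 367 against 55.3 ± 5.59, adjusted p = 1.11e-16, and 3.15 in cDC2), and Gyg, glycogenin, the primer of glycogen synthesis (4.05 and 4.46). Of 9 pentose phosphate genes, 1 rose and 4 fell in cDC1 and 2 rose and 4 fell in cDC2, among them Taldo1, transaldolase (-2.55 and -1.56). Of 18 TCA cycle genes, 2 rose and 6 fell in cDC1 and 2 rose and 5 fell in cDC2. Idh1, the cytosolic isocitrate dehydrogenase, rose (4.13 and 2.77) and Idh3a, a subunit of the mitochondrial enzyme, fell (-3.76 and -2.21). Of 12 genes of pyruvate entry, 2 rose and 2 fell in cDC1 and 2 rose and 3 fell in cDC2, with Me1, the cytosolic malic enzyme, highest (5.63 and 1.93).

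Of 9 tested genes among further glycolytic isoforms and sugar transporters, 1 rose and 4 fell in cDC1 and 1 rose and 3 fell in cDC2. Slc2a4 (GLUT4) rose in cDC1 (4.01, 35.3 ± 29.4 against 0.716 ± 0.957), and Adpgk, an ADP-dependent glucokinase, fell in both subsets (-3.07 and -2.43). Of 15 growth and mTORC1 regulators tested, 3 rose and 1 fell in cDC1 and 2 rose and 2 fell in cDC2. Myc, a transcription factor that drives glycolytic genes in growing cells, fell (-5.09, 18.4 ± 17.4 against 481 ± 101, in cDC1 and -2.32 in cDC2), and Tsc1, an inhibitor of mTORC1, rose (1.90 and 1.83), as did Rptor, a subunit of mTORC1 (1.27 and 1.61).

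Between the tissues, immature cDCs differed in fewer members. In cDC1, 7 of 35 were called (4 higher and 3 lower in thymus), where 8.77% of all genes were called, 4.26% higher and 4.52% lower, and the median log2 fold change of the members was 0.08, beside 0.00434 over all genes. In cDC2, 8 were called (6 higher and 2 lower), where 14.2% of all genes were called, 8.3% higher and 5.87% lower, and the medians were 0.41 and 0.02. Samples did not overlap for 11 members in cDC1 and 19 in cDC2, beside 17.8% and 39.3% of all genes. By the adjusted p alone, 12 members passed in each subset, beside 15.4% and 26.5% of all genes.

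Slc2a3 was the member that was lower in thymus in both subsets. Its values were 917, 776, 1094 and 874 in splenic cDC1 and 4872, 4488 and 5119.9 in splenic cDC2. The thymic values given above lay below these in every sample, with log2 fold changes of -2.15 ± 0.19 in cDC1 (adjusted p = 7.36e-08) and -1.92 ± 0.22 in cDC2 (adjusted p = 2.01e-06). Together with the fall at maturation, Slc2a3 spanned 98.8-fold between the highest group mean (splenic cDC2) and the lowest (mature thymic cDC1).

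Hk3 moved in opposite directions. It had 3034, 2577, 4279 and 2635 in splenic cDC1 against 588 to 899 in thymic cDC1 (-2.0 ± 0.31, adjusted p = 9.49e-05). In splenic cDC2 it had 248, 124 and 328 against 471 to 525 in thymic cDC2 (1.21 ± 0.36, adjusted p = 0.0199). Samples did not overlap in either subset, and the difference between the 2 tissue effects was 3.21 ± 0.47 (adjusted p = 0.000228). The cDC2 call was lost without splenic cDC2 replicate 2 (0.81, adjusted p = 0.116), and within lanes the difference in Hk3 was 1.57 in lane 5 and 0.58 in lane 8. Hk3 made up 56.7% ± 4.42 of hexokinase per kb in splenic cDC1, 21% ± 3.10 in immature thymic cDC1, 5.51% ± 1.52 in splenic cDC2 and 11.1% ± 0.483 in immature thymic cDC2.

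The carriers Slc2a6, Slc2a1 and Slc16a3 were higher in thymic cDC1. Slc2a6 had 46.3, 58.2, 112 and 54.3 in splenic cDC1, below every thymic sample (1.99 ± 0.32, adjusted p = 0.000147). Slc2a1 had 378, 333, 609.5 and 378 in splenic cDC1 (1.15 ± 0.27, adjusted p = 0.00641) and Slc16a3 had 25.7, 40.4, 80.3 and 26.8 (1.36 ± 0.38, adjusted p = 0.0206), also without overlap. With 1 sample per pool and group the call of Slc16a3 was lost (1.14, adjusted p = 0.141), and among lane 8 libraries alone those of Slc16a3 (1.13, adjusted p = 0.351) and Slc2a1 (0.93, adjusted p = 0.217) were lost. In cDC2 the tissue differences of these 3 genes were 0.67 ± 0.37, 0.75 ± 0.32 and 0.14 ± 0.44 and were not called, but the tests of the difference between subsets did not reach the threshold either (adjusted p = 0.16, 0.838 and 0.344). For Slc2a6 the difference of -1.32 ± 0.49 was called without splenic cDC2 replicate 2 (adjusted p = 0.0443), splenic cDC1 replicate 3 (adjusted p = 0.0452) or thymic cDC1 replicate 4 (adjusted p = 0.0687), and by DESeq2 on the recovered reads (adjusted p = 0.0468). Pdk2, a kinase of pyruvate dehydrogenase, was lower in thymic cDC1 (means 42.7 ± 13.5 against 93.1 ± 24.4, -1.13 ± 0.31), with -0.95 without thymic replicate 2 and -0.98 without splenic replicate 3. Eno1 was not called in cDC1 (0.88). It was called without splenic replicate 3 (1.08, adjusted p = 0.00766) or thymic replicate 4 (1.05, adjusted p = 0.0139).

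In cDC2, 5 of the 19 enzymes were called higher in the thymus (Hk3, Pfkp, Aldoa, Eno2 and Ldha), 1 was called lower (Eno3) and 13 were not called. Pfkp had 3586, 2966 and 3725 in splenic cDC2, below all thymic values (1.62 ± 0.19, adjusted p = 2.75e-06). Aldoa had 3770.4, 2315 and 4418 in splenic cDC2 (1.11 ± 0.30, adjusted p = 0.0119) and Ldha had 5766, 3965 and 5418 (1.02 ± 0.22, adjusted p = 0.00239). All 3 were without overlap, but splenic cDC2 replicate 2 was the lowest of its group for 18 of the 19 enzymes, and without it Aldoa (0.84) and Ldha (0.86) fell short of the limit, as they did without thymic replicate 3 (0.94 and 0.93). Bnip3 was also higher in thymic cDC2 (means 344 ± 87.1 against 159.9 ± 24.6, 1.08 ± 0.29, adjusted p = 0.0104), with 0.90 without thymic replicate 2 and 0.95 without splenic replicate 3. Pfkfb4 was not called in cDC2 (-0.94), but was without splenic replicate 2 (-1.17, adjusted p = 0.0261).

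Eno3 was lower in thymic than in splenic cDC2. It had 1801, 943 and 1555 in splenic cDC2 against 319 to 463 in thymic cDC2 (-1.76 ± 0.26, adjusted p = 4.27e-05). In splenic cDC1 it had 318, 302, 454 and 336, which overlapped with thymic cDC1 (0.08 ± 0.22), and the tissue effects differed between the subsets (-1.84 ± 0.34, adjusted p = 0.00198). Aldoc had means of 168 ± 48.0 in thymic and 411 ± 61.2 in splenic cDC1 and of 251 ± 71.9 and 122 ± 57.1 in cDC2, with a difference of tissue effects of 2.46 ± 0.79 (adjusted p = 0.0955). This was lost in 13 of the 20 fits that left out 1 sample, with the highest adjusted p, 0.242, without immature thymic cDC2 replicate 3. The tissue differences of Aldoc within a subset, -1.33 ± 0.52 in cDC1 (adjusted p = 0.117) and 1.13 ± 0.60 in cDC2 (adjusted p = 0.208), were not called, although samples did not overlap in either. On the recovered reads, the cDC1 difference was called by DESeq2 (adjusted p = 0.00877) and edgeR (adjusted p = 0.0363). The cDC2 difference was called there by DESeq2 (adjusted p = 0.0900). With a pseudocount of 8, both were called by limma (adjusted p = 0.0218 and 0.0797). These are 3 members with a difference of tissue effects (2 higher and 1 lower), where 4.98% of all genes were called, 3.27% higher and 1.71% lower. By the adjusted p alone, 4 members passed, beside 6.25% of all genes.

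Eno2 was called higher in thymus in both subsets, at low values. In splenic cDC1 its values were 1.03, 0.986, 3.69 and 5.91, from 23 reads in all, and in splenic cDC2 they were 33.9, 21.2 and 61.9. The log2 fold changes were 1.51 ± 0.41 in cDC1, where samples overlapped, and 1.69 ± 0.48 in cDC2, where they did not. In cDC1 the value fell to 0.66 with a pseudocount of 8 and the adjusted p was 0.171 by edgeR on the recovered reads. Within lanes, the difference was 2.36 in lane 5 and 0.73 in lane 8 in cDC1, and 1.94 and 0.98 in cDC2.

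All 7 tissue calls in cDC1 and all 8 in cDC2 had the same sign within lane 5 and within lane 8. Lane 5 held 1 thymic and 2 splenic samples of each subset, and lane 8 held 3 and 2 in cDC1 and 2 and 1 in cDC2. Members whose samples do not overlap must keep their sign in any such part, so that the check could not fail for them. Cell division markers were also higher in immature thymic cells (22276 to 26839 in cDC1 and 27298 to 27989 in cDC2) than in splenic cells (10319 to 18557 and 14634 to 19359.8). The summed epithelial, T cell and macrophage markers were higher in thymic cells of both subsets, with T cell sums of 203 to 259.7 against 48.4 to 83.8 in cDC1 and 218 to 336 against 36.2 to 87.9 in cDC2. Of the macrophage markers, Emr1 was lower in thymic than in splenic cDC2 (1777 to 2039 against 4192 to 4923). C1qa, C1qb, C1qc, Mertk and Fcgr1 were higher there. The B cell markers were lower in the thymus (106 to 139 against 566 to 984 in cDC1 and 170.1 to 239.9 against 599.7 to 637 in cDC2), as were the erythroid markers in both subsets and the cDC2 markers in cDC1 (381 to 741 against 2385 to 3423). Of the cDC2 markers, Clec10a went the other way in cDC1 (56.2 to 88.3 in thymus against 11.1 to 22.6 in spleen). The sums of the mature and plasmacytoid DC markers were higher in thymic cDC2. Ccl22 made up most of the mature sum (13088 to 19670 in thymic against 117 to 323 in splenic cDC2), with Fscn1 and Socs2 also higher. Relb (2593 to 3122 against 4893 to 10274) and Esam (1.07 to 14.0 against 47.3 to 86.9) were lower in thymic cDC2, and Ccr7 overlapped. The part of these markers in the tissue differences was not tested.

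**Figure D5:**
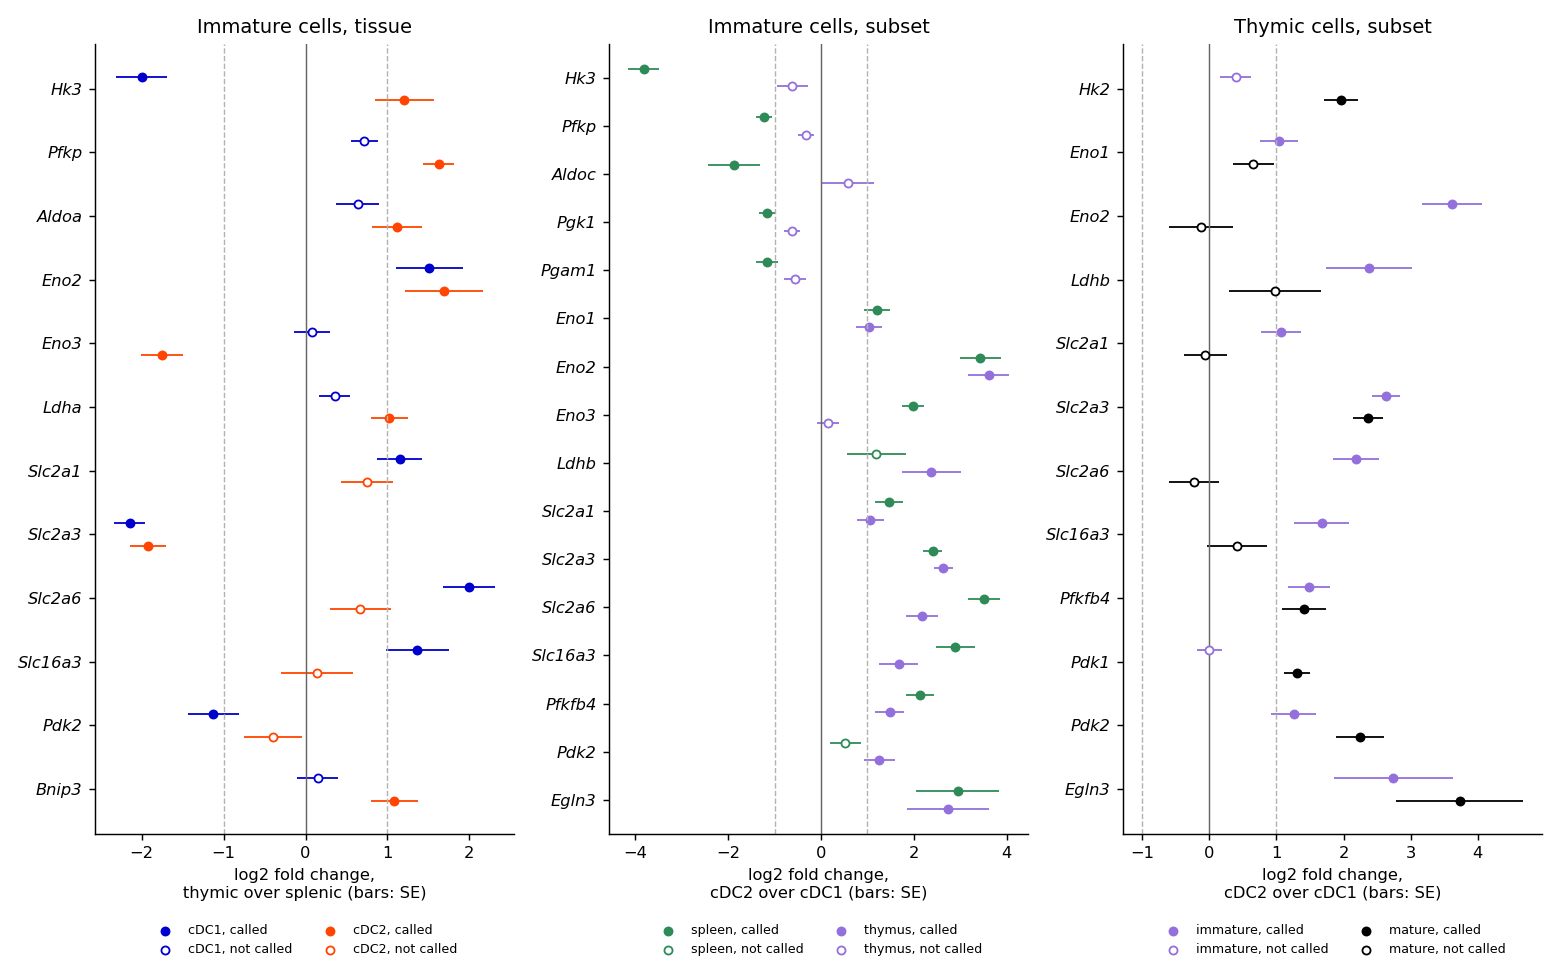
Log2 fold changes with SE of the members called in at least 1 of the comparisons shown, for thymic over splenic immature cells (left), cDC2 over cDC1 among immature cells (middle) and cDC2 over cDC1 among thymic cells (right). Filled points were called, and dashed lines mark 1 in either direction. Slc2a3 is left of -1 in both subsets in the left panel and right of 1 in each comparison of cDC2 with cDC1.

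Between the subsets, the glucose carriers Slc2a1, Slc2a3 and Slc2a6 and the lactate carrier Slc16a3 were higher in cDC2 among splenic and among immature thymic cells. Among mature cells only Slc2a3 of these carriers was called, and the lactate carrier Slc16a1 was called in none of the 3 comparisons. Among splenic cells 14 members were called (9 higher and 5 lower in cDC2), where 16.6% of all genes were called, 9.93% higher and 6.7% lower, with medians of 0.20 for the members and 0.02 for all genes. Among immature thymic cells 10 were called, all higher in cDC2, where 16.4% of all genes were called, 11% higher and 5.42% lower, with medians of 0.42 and 0.01. Among mature thymic cells 6 were called, all higher in cDC2, where 18.9% of all genes were called, 14.6% higher and 4.36% lower, with medians of 0.35 and 0.14. Samples did not overlap for 22, 22 and 17 members, beside 31.6%, 34.8% and 32.8% of all genes. By the adjusted p alone, 20, 16 and 15 members passed, beside 29.4%, 26% and 30.3% of all genes.

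Slc2a3 was higher in cDC2 in each of the 3 comparisons, with log2 fold changes of 2.41 ± 0.20 in spleen (adjusted p = 1.51e-08), 2.63 ± 0.20 in immature thymic cells (adjusted p = 5.22e-09) and 2.36 ± 0.22 in mature thymic cells (adjusted p = 1.88e-07). The lowest cDC2 sample lay above the highest cDC1 sample each time. Slc2a6 was 11.6-fold higher in splenic cDC2, where it had 842, 438 and 1077 (3.51 ± 0.35, adjusted p = 1.28e-07), and 4.36-fold higher in immature thymic cDC2 (2.18 ± 0.35, adjusted p = 6.15e-05). Mature cells of the subsets overlapped for Slc2a6 (-0.23 ± 0.37, adjusted p = 0.707). Slc2a1, with 1246, 792 and 1517 in splenic cDC2, was higher there (1.47 ± 0.30) and in immature thymic cDC2 (1.07 ± 0.30, with 0.99 without cDC2 replicate 3), and not called in mature cells (-0.06 ± 0.32).

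Slc16a3 had 279, 219 and 422 in splenic and 347, 311 and 319 in immature thymic cDC2. It was higher than in cDC1 by 2.90 ± 0.41 in spleen (adjusted p = 1.76e-05) and 1.67 ± 0.41 in immature thymic cells (adjusted p = 0.00494) on the log2 scale, without overlap. In mature cells its log2 fold change was 0.41 ± 0.44 (adjusted p = 0.554). The summed glucose carriers per kb were 4.65-fold higher in splenic cDC2 than in splenic cDC1 and 2.92-fold higher in immature thymic cDC2 than cDC1.

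Among regulators, Pfkfb4, a HIF target that makes or removes the activator of phosphofructokinase, had 163, 249.5, 308 and 224 in splenic cDC1 and 1155, 734 and 1234 in splenic cDC2. It was higher in cDC2 in all 3 comparisons (2.14 ± 0.31, 1.48 ± 0.31 and 1.42 ± 0.33, adjusted p = 1.96e-05, 0.00109 and 0.00362). Egln3 was called in all 3 as well (2.95 ± 0.89, 2.74 ± 0.89 and 3.73 ± 0.95), but at low values. It had 3.09, 11.8, 2.77 and 11.2 in splenic cDC1 and 49.4, 41.2 and 73.3 in splenic cDC2. In the thymus it had 20.3, 4.16, 4.68 and 0 in immature and 0, 6.93 and 0.8 in mature cDC1, the latter from 5 reads in all, and 14.9, 71.6 and 31.2 in immature and 13.1, 41.8 and 54.9 in mature cDC2. The immature thymic samples overlapped, and that call was lost without cDC2 replicate 2 (adjusted p = 0.167) or cDC1 replicate 4 (adjusted p = 0.111). Within lanes the Egln3 difference of the immature thymic subsets was -0.42 in lane 5, with 1 sample a subset, and 3.97 in lane 8, whereas the other 9 calls kept their sign in both lanes. The splenic Egln3 call was lost with a pseudocount of 0.1 (adjusted p = 0.136). Pdk2 was higher in immature (1.26 ± 0.33) and mature thymic cDC2 (2.25 ± 0.36, adjusted p = 0.000104), where mature cDC1 had 33.2, 36.4 and 53.6 and mature cDC2 208, 193 and 184.

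The enzymes were more evenly divided. Hk3 was 13.4-fold lower in splenic cDC2 than in splenic cDC1 (-3.82 ± 0.33, adjusted p = 2.35e-08). This was the largest log2 fold change in size between the splenic subsets among the members, on the scale of log2(value + 1). Pfkp (-1.23 ± 0.18), Pgk1 (-1.16 ± 0.17), Pgam1 (-1.15 ± 0.24) and Aldoc (-1.87 ± 0.56) were also lower in splenic cDC2, although Pgam1 (-0.96) and Aldoc (adjusted p = 0.115) were not called without splenic cDC2 replicate 2. Eno1 had 2030.1, 2673, 4250.1 and 2669 in splenic cDC1 and 6904, 4523 and 8555 in splenic cDC2 and was higher in cDC2 there (1.20 ± 0.28) and in the immature thymus (1.04 ± 0.28), with a value just under 1 in spleen without splenic cDC2 replicate 3, and 0.92 and 0.87 in thymus without cDC2 replicate 3 or cDC1 replicate 4. Eno2 was higher in splenic (3.43 ± 0.45, adjusted p = 5.40e-06) and immature thymic cDC2 (3.61 ± 0.45, adjusted p = 3.08e-06), and mature cells of the subsets overlapped (-0.13 ± 0.48). Eno3 was higher in splenic cDC2 (1.99 ± 0.24, adjusted p = 2.12e-06) and Ldhb in immature thymic cDC2 (2.38 ± 0.64, adjusted p = 0.0093). Hk1 was not called in spleen (0.84), but was without splenic cDC2 replicate 2 (1.06, adjusted p = 0.00127).

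In mature cells, Hk2 was 3.94-fold higher in cDC2 (1.96 ± 0.25, adjusted p = 8.78e-06) and Pdk1 2.42-fold (1.31 ± 0.20, adjusted p = 6.00e-05), neither of which was called between the immature thymic subsets (for Hk2, 0.39 ± 0.23). Pfkfb3 was lower in mature cDC2 than in mature cDC1 (-0.74 ± 0.13, adjusted p = 0.000357) without reaching the limit of 1, with no overlap. Without mature cDC1 replicate 2 or mature cDC2 replicate 3, 10 members were called in place of 6. Those gained were Hk3, Pfkm, Aldoc and Slc16a1 in the first case (-1.09, 1.43, 1.70 and 1.67) and Pfkl, Aldoc, Ldha and Pfkfb1 in the second (1.03, 2.08, 1.21 and -1.04). The cDC1 markers Irf8 and Batf3 held in mature cDC2, and the macrophage markers, which summed to 5656 in mature cDC2 replicate 3 and to 17359 and 18626 in the other 2, differ between these libraries, and their part in the subset differences was not tested.

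The immature thymic samples enter both the maturation and the tissue comparisons, so that those values are not independent of each other. Set side by side for cDC1, Hk3 had -2.0 from spleen to thymus and -1.94 from immature to mature, Slc2a6 had 1.99 and 3.90, and Slc2a1 had 1.15 and -1.51. For cDC2, Eno3 had -1.76 and 3.77, and Ldha had 1.02 and -2.56.

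Across the 6 groups, the members fell into an order that the spread of samples resolved only in part. For Eno2 the order was mature cDC1, mature cDC2, immature thymic cDC2, splenic cDC2, immature thymic cDC1 and splenic cDC1, and only the first pair and the last pair overlapped. For Pfkfb3 mature cDC1 stood above mature cDC2, and mature cDC2 above all immature groups, each without overlap. For Ldha, immature thymic cDC1, immature thymic cDC2 and splenic cDC1 overlapped at the top, and splenic cDC2, mature cDC2 and mature cDC1 followed without overlap. For Slc2a3, splenic cDC2 stood above immature thymic cDC2 and that above splenic cDC1, each without overlap. Gapdh and Pfkfb2, like Hk1, Pfkm, Pkm, Slc16a1 and Egln3, had no neighbouring pair without overlap, and the group means of Gapdh and Pfkfb2 differed by no more than 1.68-fold and 1.31-fold.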

How the data were processed

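RNA from sorted mouse cDCs was sequenced in 21 libraries of 6 groups, with groups, pools and lanes taken from the labels. Per the study's methods, the authors used Cutadapt for trimming and STAR (version 2.6 in the submitters' processing notes) for alignment to mm10, counted reads per gene with HTSeq-count on an Ensembl annotation and divided the counts by DESeq2 (version 1.24.0) size factors. The deposited signal is therefore a normalized read count per gene. The library kit keeps strand, but the strand setting of the counting and the annotation release are not given in the sources used here. Division by the value of 1 read gave whole reads for 100% of values (tolerance 0.001 reads), from which the depth was taken.

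Splenic cDC1 replicates 4 and 5 (chi-square per degree of freedom 2.44, against 24.99 to 176.4 for the 9 other pairs) were averaged, which left 20 samples. Immature thymic cDC1 replicates 3 and 4 (92.8) were kept apart. The 14970 genes with 3 or more samples at 10 or above were fitted with limma (version 3.58.1, R 4.3.3) on log2(value + 1), with 6 group means and trended moderation. Calls needed an adjusted p under 0.1 together with a log2 fold change larger than 1 in size. The log2 scale with a pseudocount understates changes of low genes. Alternatives were edgeR (4.0.16) and DESeq2 (1.42.0) on the recovered reads, TMM rescaling, pseudocounts of 0.1 and 8, other filters, thresholds and groups fitted, lanes, pools as a block, and leaving out each sample. The fits were tested on simulated data first.

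The 36 members and the gene lists were chosen with earlier results of these data known. In each comparison, members past both criteria were named with statistics, and at most 3 called genes per list, of which 1 is not reported here. Values per kb used the exon length in GENCODE M21 (GRCm38), to which 37693 of 37734 gene IDs matched. This length counts every annotated exon base of a gene, whichever transcripts are present, and no other length was tried. Nothing states that replicates came from separate animals beyond the pool numbers, so that p values measure the spread between these samples.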

Additional observations from a re-analysis of the deposited data

Results flagged for a closer look

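In splenic cDC1, 1 of the 4 samples stood apart from the others for 5 members. Replicate 3 was the highest for Pfkl (2417), Aldoa (7026), Pkm (11643) and Slc2a1 (609.5), and replicate 2 for Pdk1 (1034). The gap to the next sample passed Dixon's 95% criterion, which chance passes in about 1 in 20 groups, and 70 sets of 4 samples (35 members in 2 groups) were examined. Splenic cDC1 replicate 3 was also the highest of its group for 16 of the 19 glycolytic enzymes.

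The change with maturation differed between the subsets, by the interaction term of the limma fit. The difference (cDC2 minus cDC1, log2) was -3.74 for Eno2, -2.41 for Slc2a6, -1.42 for Pfkfb3 and -1.13 for Slc2a1, and it was 1.57 for Hk2, 1.48 for Pfkl, 1.31 for Pdk1 and 1.19 for Ldha. The change between tissues differed by 3.21 for Hk3, 2.46 for Aldoc and -1.84 for Eno3 in the same direction of subtraction.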

How the results depend on the processing

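The members called numbered 22 and 20 for maturation (cDC1, cDC2), 7 and 8 for tissue, 14, 10 and 6 for subset (spleen, immature and mature thymus), 8 for the difference in maturation and 3 for the difference in tissue effects. Leaving out each sample gave 20 to 24, 18 to 21, 6 to 8, 6 to 9, 13 to 16, 8 to 11, 6 to 10, 7 to 9 and 2 to 3. A log2 fold change limit of 2 gave 12, 10, 1, 0, 7, 5, 3 and 2 for the first 8. With the adjusted p alone, 12 were called for tissue in cDC1, 16 for subset in immature thymus and 15 in mature thymus. Lane 8 alone gave 3 and 4 for tissue and 0 for the difference in tissue effects. It leaves fewer samples. In 3214 refits of the 98 called pairs of member and comparison, no direction reversed, 105 lost the call, and 68 pairs kept it under every alternative run. These refits include those that left out a sample of a group outside the comparison. Such refits leave the log2 fold change as it was and could not reverse a direction. Levels scaled to each library's total reads moved by less than 1 SD for 180 of 216 member and group pairs. Calls lost outside the left-out samples included Slc16a3 for tissue in cDC1 with 1 sample per pool (adjusted p = 0.141) and Aldoa and Ldha for tissue in cDC2 with lane as a covariate (0.99 and 0.96). The causes were not tested.

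Same-pool correlations between the subsets ran from -0.150 to 0.461 and were not all above 0.1, so that pool numbers were not taken to pair samples. With the pool as a replicate block, 22, 22, 7, 8, 14, 9, 6, 8 and 3 members were called. Immature thymic Egln3 was lost (adjusted p = 0.112), and Pdk1 and Pkm were gained for maturation in cDC2. Depth limits genes with few reads, such as Eno2 and Ldhb in immature cDC1, Egln3 and Pdk4.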
